A study of Drosophila montana with 9 samples.

Results

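*Mekk1*, *Mpk2*, *Dsor1* and *imd* are the 4 genes of stress and immune MAP kinase signalling on a candidate gene microarray of *Drosophila montana* that carried 101 candidate genes and 7 control genes. They were taken by name: every experimental probe that the arrays list for one of these genes was used, which gave 8 of the 204 probes of those genes, and 10 of the 236 experimental spots. *Mekk1* had 2 probes, *Dsor1* had 4 probes, and *Mpk2* and *imd* had 1 probe each, spotted as 2 copies. The study placed *Mekk1*, *Mpk2* and *Dsor1* among its 26 circadian rhythm genes and *imd* among its 27 heat tolerance genes. The rule for taking these 4 genes used no measured values, though earlier results of these data were known when they were chosen.

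The flies were females of the isofemale line O3F66 from Oulanka, Finland, kept in the laboratory under light that prevents diapause, and no group carried a mutation or a transgene. Diapausing females had spent 14 days at 16 °C with 16 h of light per day. Reproducing females had the same age and temperature and 24 h of light per day, and young females were 1 day old and came straight from the culture at 19 °C and 24 h of light. Each group had 3 arrays, each with RNA from the whole bodies of 13 pooled females of this 1 line. The groups are defined by rearing. Diapause and day length cannot be told apart between diapausing and reproducing females, nor can age and temperature in the comparisons with young females, where diapausing females differed in light as well. The question of the study was which candidate genes differ between these reproductive states.

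In *D. melanogaster*, MAP kinases are switched on in a chain in which one kinase phosphorylates the next. Mekk1 stands near the top of the chain that answers osmotic, oxidative and heat stress, and Mpk2, a p38 kinase also known as p38a, stands at its end. Dsor1 is the MEK of the Ras pathway, which passes signals from growth factor receptors to the ERK kinase, and Imd is an adaptor protein that couples the sensing of bacterial cell walls to NF-kappaB and JNK signalling. The kinases are regulated largely by phosphorylation, which a transcript array does not measure.

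The probes are 60 bases long and were designed from the species' own sequence. Those of the 3 kinases are shown because their letters carry traces of the proteins, and because the direction of a probe bears on what it can bind. Capitals mark, in Mpk2_1FR, the first stop codon of each of the 3 reading frames of the listed strand, in Dsor1_3F3R_a the complement of the codons for Asp-Phe-Gly, and in Dsor1_3F3R_b the complement of the codons for His-Arg-Asp. Both are motifs of the catalytic domain of protein kinases.
Mekk1_2F: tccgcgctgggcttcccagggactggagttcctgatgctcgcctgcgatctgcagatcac
Mekk1_3R: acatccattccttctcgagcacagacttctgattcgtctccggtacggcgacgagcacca
Mpk2_1FR: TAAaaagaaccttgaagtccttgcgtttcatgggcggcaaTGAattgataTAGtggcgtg
Dsor1_1R: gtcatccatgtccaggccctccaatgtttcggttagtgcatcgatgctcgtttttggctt
Dsor1_2F: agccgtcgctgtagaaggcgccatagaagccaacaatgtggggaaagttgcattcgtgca
Dsor1_3F3R_a: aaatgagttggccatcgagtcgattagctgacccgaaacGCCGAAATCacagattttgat
Dsor1_3F3R_b: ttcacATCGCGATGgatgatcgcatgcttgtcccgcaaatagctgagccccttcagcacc

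Asp-Phe-Gly was searched for as GAT or GAC, then TTT or TTC, then GGN, and His-Arg-Asp as CAT or CAC, then CGN, AGA or AGG, then GAT or GAC, on both strands and in reading frames without a stop codon. The first was found in 3 of the 204 probes (1.47%) and the second in 1 probe (0.49%), on the reverse complement every time. Mpk2_1FR and Dsor1_3F3R_a had an open frame on the reverse complement only, as had 9 of the 204 probes (4.41%), while 12 probes (5.88%) were open on the listed strand only and 183 (89.7%) on both. By these letters, Mpk2_1FR and both 3F3R probes are listed as the complement of the messenger RNA. The labelled target was amplified cRNA, which is also complementary to the messenger RNA, and the part of this in the signal was not tested. For the other 4 kinase probes, and for imd_1F1R, this check did not settle the direction, since both strands held an open frame. Their translations were not compared with known proteins, so their direction was not determined here.

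The probes of 1 gene shared no stretch longer than 7 bases in their listed letters. Whether each bound its own site was not tested. Their GC content was 63.3% and 55.0% for *Mekk1*, 43.3% for *Mpk2*, 45.0% to 55.0% for *Dsor1* and 41.7% for *imd*, within the 31.7% to 65.0% of all 204 probes. The *D. montana* annotation from RefSeq (assembly ASM3504440v1) listed *Mekk1*, *Dsor1* and *imd*, each on a sequence without an assigned chromosome. Where in a gene each probe lies was not analysed here.

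Signal was taken as the mean pixel intensity of a spot and normalized by variance stabilization (VSN), which puts it on a log2 scale. A gene's level was the mean over its probes, and a gene was called changed at a Benjamini-Hochberg adjusted p under 0.05, over all genes, with a fold change over 2. The arrays differed in ways that touch these values. The median normalized intensity of the 204 probes lay between 5.68 and 7.03, and it was 7.03 on diapausing 27 against 5.68 and 5.96 on the other diapausing arrays, and 5.82 on reproducing 40 against 6.95 and 6.80 on the other reproducing arrays. On reproducing 40, the negative control spots had an SD of 20.4, against 2.20 to 12.7 on the other 8 arrays, and 123 of the 204 probes were well above background, against 135 to 153. Each of the 3 slides held 1 array of each group, and diapausing 27 shared slide 1 with reproducing 22 and young 12.

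None of the 4 genes was called in any comparison by limma. Between diapausing and reproducing females 0 of the 4 genes were called, where 0.926% of all genes were. Between diapausing and young females 0 of 4 were called, against 2.78% of all genes, and between reproducing and young females 0 of 4, against 8.33%. Probe by probe, 0 of the 8 probes were called in each of these comparisons, against 1.47%, 2.45% and 4.41% of the 204 probes, taken in the same order. No gene or probe of the 4 reached an unadjusted p under 0.05 either, where 8.33%, 10.2% and 24.1% of all genes and 8.33%, 12.3% and 17.6% of all probes did. With so few called over the array, counts of 0 among 4 genes or 8 probes do not set these genes apart.

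*Dsor1* had the largest spread of the 4 genes within diapausing, reproducing and young females, and the largest differences in the comparisons with reproducing females. Its level was 8.75, 6.60 and 7.00 on the log2 scale on diapausing arrays 27, 42 and 43. On reproducing arrays 22, 23 and 40 it was 8.93, 8.43 and 7.08. On young arrays 12, 16 and 17 it was 6.90, 7.37 and 7.53. Diapausing 42 and 43 lay below every reproducing array, and diapausing 27 lay between reproducing 22 and reproducing 23, so these groups overlapped. The means were 7.45 ± 1.14 in diapausing, 8.15 ± 0.96 in reproducing and 7.27 ± 0.33 in young females (SD, n = 3 each).

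*Dsor1* averaged lower in diapausing than in reproducing females on the log2 scale (limma, -0.70 ± 0.63 SE, adjusted p = 0.677), with a 95% interval of -2.14 to 0.74. Between reproducing and young females the log2 fold change was 0.88 (SE 0.63, limma adjusted p = 0.472), with an interval of -0.56 to 2.32, and between diapausing and young females it was 0.18 (SE 0.63, limma adjusted p = 0.85). These intervals include differences of more than 2-fold. The order of the means was reproducing, diapausing, young, and no neighbours in it differed beyond their spread.

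The 4 probes of *Dsor1* ran together except on reproducing 40. The raw signal of Dsor1_1R was 572, 211 and 261 on diapausing arrays 27, 42 and 43, against 804, 570 and 345 on reproducing arrays 22, 23 and 40 and 208, 258 and 285 on young arrays 12, 16 and 17. That of Dsor1_2F was 461, 166 and 214 on the diapausing arrays, against 572, 450 and 102 on the reproducing and 168, 160 and 223 on the young arrays. On reproducing 40, Dsor1_2F thus gave its lowest signal of the 9 arrays, while the 345 of Dsor1_1R exceeded its signal on every young array. After normalization Dsor1_1R on reproducing 40 stood at -0.16 from its own mean over the arrays, and Dsor1_2F at -1.61.

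Dsor1_3F3R_a, which carries the Asp-Phe-Gly codons, read 294, 137 and 160 on diapausing arrays 27, 42 and 43, against 440, 313 and 178 on reproducing arrays 22, 23 and 40 and 123, 142 and 153 on young arrays 12, 16 and 17. Dsor1_3F3R_b, which carries the His-Arg-Asp codons, read 321, 152 and 175 on the diapausing arrays, against 505, 342 and 214 on the reproducing and 142, 174 and 193 on the young arrays. Both followed Dsor1_1R closely. Over the 9 arrays, the normalized values of Dsor1_1R, Dsor1_3F3R_a and Dsor1_3F3R_b correlated with each other at a Pearson r of 0.99 or more, and Dsor1_2F correlated with them at 0.85 to 0.86. These correlations are a description over 9 arrays, and the probes share the arrays and their normalization.

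Dsor1_3F3R_a was the one probe of *Dsor1* whose normalized values did not overlap between reproducing and young females. It stood at 8.53, 8.00 and 6.99 on the reproducing arrays and at 6.38, 6.95 and 6.95 on the young arrays (limma, log2 difference 1.08 ± 0.57 SE, p adjusted over the 204 probes = 0.339). Of all 204 probes, 7.84% exceeded the young arrays on every reproducing array, and 1 of the 8 probes here did. The gap between the groups was narrow, with 6.99 on reproducing 40 and 6.95 on the highest young arrays.

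**Figure D1:**
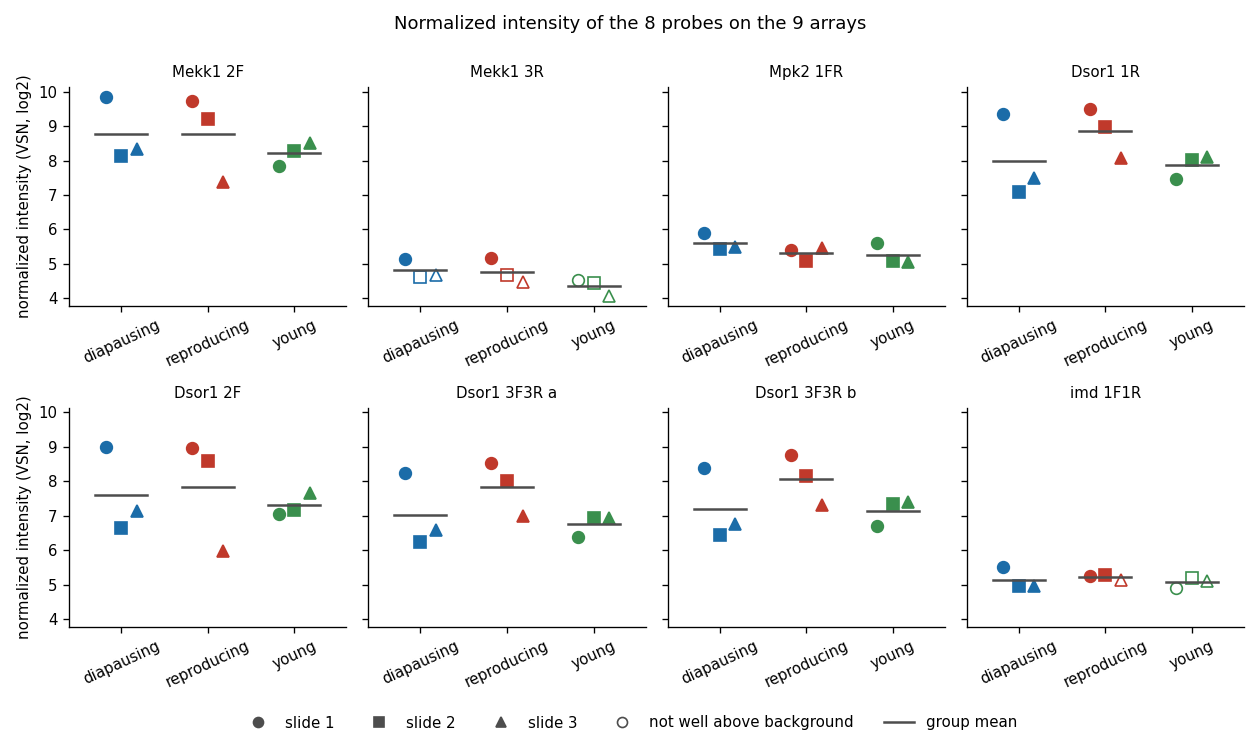
Normalized intensity (VSN, log2; vertical axis) of each of the 8 probes in diapausing, reproducing and young females, with 1 point per array, symbols for the slide, open symbols for spots not well above background and lines for group means. For *Mekk1*_2F and the *Dsor1* probes, diapausing 27 on slide 1 stands above the other diapausing arrays and reproducing 40 on slide 3 below the other reproducing arrays, and levels of different probes are not comparable with each other.

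Within the slides, *Dsor1* was lower in diapausing than in reproducing females by differing amounts, with log2 differences of -0.19, -1.83 and -0.08 on slides 1, 2 and 3. Reproducing minus young gave 2.03, 1.07 and -0.45, and diapausing minus young gave 1.85, -0.76 and -0.53. The direction was therefore the same on the 3 slides only between diapausing and reproducing females. With slide as a block the adjusted p of limma for that comparison was 0.649, and the call did not change.

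*Mekk1*, the MAP kinase kinase kinase, was measured by one bright and one dim probe. Mekk1_2F had raw signals of 780, 384 and 438 on diapausing arrays 27, 42 and 43, against 935, 662 and 225 on reproducing arrays 22, 23 and 40 and 255, 303 and 365 on young arrays 12, 16 and 17. It was well above background on all 9 arrays, highest on reproducing 22 and lowest on reproducing 40. Mekk1_3R had raw signals of 84, 76 and 75 on the diapausing arrays, against 88, 75 and 54 on the reproducing and 69, 56 and 58 on the young arrays, and only diapausing 27 and reproducing 22 were well above background.

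At the gene level *Mekk1* stood at 7.49, 6.38 and 6.52 on the diapausing arrays, at 7.44, 6.95 and 5.92 on the reproducing arrays and at 6.18, 6.37 and 6.29 on the young arrays. All 3 diapausing arrays lay above all 3 young arrays, though by only 6.38 on diapausing 42 against 6.37 on young 16, and the reproducing arrays, from 5.92 to 7.44, overlapped with both. Young females had an SD of 0.09, against 0.60 in diapausing and 0.77 in reproducing females (n = 3 each). Over young arrays 12, 16 and 17, Mekk1_2F rose (7.84, 8.29 and 8.51, SD 0.34) and the dim Mekk1_3R fell (4.52, 4.45 and 4.07, SD 0.24). The small SD is therefore that of a mean in which these offset each other, and gene-level differences from young females include background signal. Mekk1_2F alone gave 0.56 against young females in both comparisons (SE 0.65 each, limma adjusted p = 0.764 for diapausing and 0.703 for reproducing females). At the gene level the log2 fold change was 0.52 (SE 0.43, 95% interval -0.47 to 1.5, limma adjusted p = 0.576) between diapausing and young females and 0.49 (SE 0.43, interval -0.49 to 1.48, limma adjusted p = 0.556) between reproducing and young females.

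Between diapausing and reproducing females, *Mekk1* differed by 0.02 on the log2 scale (SE 0.43, limma adjusted p = 0.974), with an interval of -0.96 to 1.01. The sign of this difference rested on single arrays, since it was -0.27 without diapausing 27 and -0.38 without reproducing 40. Within slides 1, 2 and 3 it was 0.05, -0.57 and 0.60. Diapausing minus young was 1.31, 0.01 and 0.23 on those slides, where the medians of all genes were 0.30, -0.86 and -0.61. Slide 1 thus held nearly all of the difference in level, while *Mekk1* lay above the median of all genes on each slide. Without diapausing 27 the difference was 0.18, beside a median of -0.61 for all genes.

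*Mekk1* was the one gene of the 4 whose groups did not overlap in a comparison, between diapausing and young females, where 2.78% of all genes were higher in diapausing females without overlap. Of its probes, Mekk1_2F overlapped between these groups, and Mekk1_3R, the 1 of the 8 probes whose values did not (against 3.92% of the 204 probes), was not well above background on any young array and on only 1 diapausing array, so its order is not read as a difference. In the other comparisons 0 of the 4 genes were higher without overlap, where 3.7% (diapausing over reproducing) and 5.56% (reproducing over young) of all genes were, and 0 of the 8 probes were so in diapausing over reproducing females, where 6.86% of all probes were. Set against the lowest signal well above background on the young arrays the ratio of Mekk1_3R is under 1, so no fold is given for it in either comparison with young females.

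*Mpk2*, the p38 kinase at the end of the stress chain, was dim and varied little. The mean raw signal of its 2 spots was 104, 98 and 98 on diapausing arrays 27, 42 and 43, against 95, 83 and 80 on reproducing arrays 22, 23 and 40 and 92, 66 and 73 on young arrays 12, 16 and 17. At least 1 of the 2 spots was well above background on each array. The copies differed most on reproducing 40, with 53 and 107, of which only the brighter was well above background.

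Normalized, *Mpk2* stood at 5.91, 5.44 and 5.50 in diapausing, 5.39, 5.07 and 5.46 in reproducing and 5.61, 5.09 and 5.05 in young females. The lowest diapausing array lay below the highest array of each of the other groups, so that all groups overlapped. The log2 fold change was 0.31 between diapausing and reproducing females (SE 0.26, 95% interval -0.28 to 0.89, limma adjusted p = 0.658) and 0.37 between diapausing and young females (SE 0.26, interval -0.22 to 0.95, limma adjusted p = 0.548). Both intervals stayed within 2-fold in this fit, and a difference of a dim probe is compressed by the background that remains in its signal. With the background-subtracted processed signal scaled to the 75th percentile, *Mpk2* stood at 1.48 between diapausing and young females (limma, SE 0.50, adjusted p = 0.111), so the bound depends on the scaling.

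*Mpk2* was higher in diapausing than in reproducing females on each of the slides, by 0.52, 0.37 and 0.04 on slides 1, 2 and 3, and higher than in young females by 0.30, 0.35 and 0.45. It was the only one of the 4 genes with the same direction on every slide in both comparisons. Under each of the 23 alternatives tried, both differences kept their sign, and none made the call. Between reproducing and young females the log2 fold change was 0.06 (SE 0.26, interval -0.53 to 0.65, limma adjusted p = 0.906), and its sign turned under 3 of the 23 alternatives.

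*imd*, the adaptor of the immune deficiency pathway, was near the detection limit. The mean raw signal of its 2 spots was 92, 83 and 81 on diapausing arrays 27, 42 and 43, against 90, 88 and 70 on reproducing arrays 22, 23 and 40 and 75, 68 and 74 on young arrays 12, 16 and 17. It was well above background on the 3 diapausing arrays and on reproducing 22 and 23, and not on reproducing 40 or on any young array. Normalized, it stood at 5.50, 4.95 and 4.97 in diapausing, 5.24, 5.27 and 5.14 in reproducing and 4.89, 5.20 and 5.12 in young females, with all groups overlapping.

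For *imd* the log2 fold change between diapausing and reproducing females was -0.08 (SE 0.23, 95% interval -0.61 to 0.45, limma adjusted p = 0.855). Since no young array had *imd* well above background, young females give only an upper limit, and no fold is given against them (limma adjusted p = 0.85 for diapausing and 0.753 for reproducing females). The values that follow show only how these comparisons moved with the processing, and are not read as folds. Diapausing minus young was 0.81 with the processed signal at the 75th percentile (limma, SE 0.22, adjusted p = 0.0453), short of 2-fold, where the median of all genes was 0.33. Reproducing minus young was 1.36 with the deposited table (limma, SE 0.50, adjusted p = 0.126). It was 0.89 there without reproducing 40 (limma, SE 0.49, adjusted p = 0.371). On reproducing 40 the deposited value of *imd* was 12.9 times its processed signal.

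**Figure D2:**
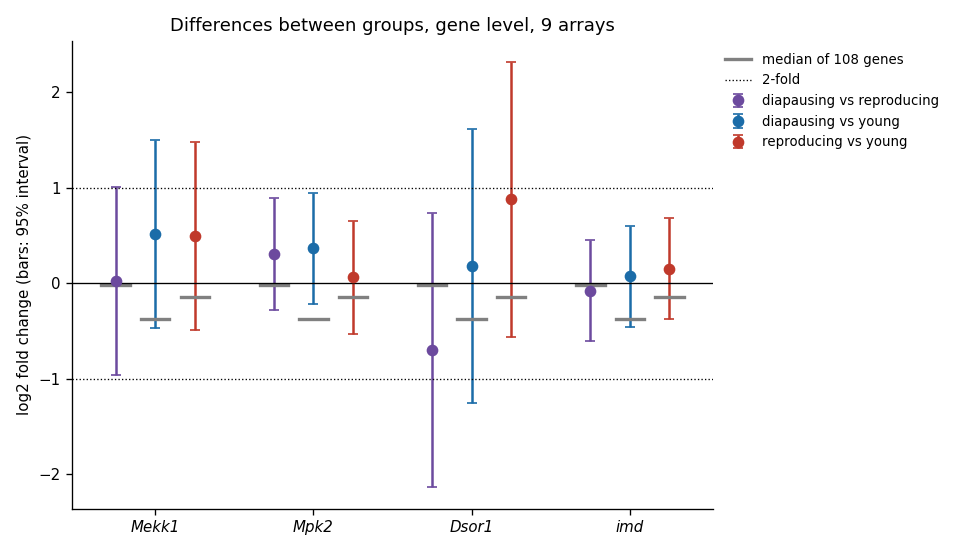
Log2 fold change of the 4 genes (vertical axis, points) with 95% intervals (bars) in the 3 comparisons, each over 9 arrays, with grey ticks for the median of all genes and dotted lines at 2-fold. Every interval spans 0, those of *Dsor1* are the widest, and all 4 points lie above 0 and above the median of all genes in both comparisons with young females.

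In both comparisons with young females, the log2 fold changes of all 4 genes were above 0, where those of 22.2% (diapausing with young) and 36.1% (reproducing with young) of all genes were. The same held for 8 of the 8 probes, against 24.5% and 38.2% of the 204 probes. Of these, imd_1F1R and Mekk1_3R were not well above background on any young array, so their sign, and that of *imd*, rests on background signal. Over the probes well above background on at least 1 array of both groups, 6 of 6 were above 0 in each comparison, against 16% and 33.1% of all such probes. Of these 6 probes, 4 belong to *Dsor1* and are not independent of each other. Without diapausing 27, diapausing minus young was -0.44 for *Dsor1* and -0.09 for *imd*. *Mekk1* stayed at 0.18 and *Mpk2* at 0.23 there, beside a median of -0.61 for all genes. The median log2 fold change of the 4 genes was 0.28 between diapausing and young females, beside -0.38 for all genes, and 0.32 between reproducing and young females, beside -0.14. Between diapausing and reproducing females it was -0.03 beside -0.02, with 2 of 4 genes (48.1% of all genes) and 3 of 8 probes (45.1% of all probes) above 0. These are counts over 4 genes chosen with earlier results of these data known, both comparisons share the young arrays, and no test was made of them.

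The median of the 4 genes stood above that of all genes in both comparisons with young females under each of the 23 alternatives. How far single genes moved depended on how the arrays were scaled. Between diapausing and young females the median of all genes was -0.38 under VSN, which is fitted on the spike-in spots as well, 0.33 with the processed signal scaled to each array's 75th percentile of experimental probes, and 0.00 after quantile normalization. The medians of the 4 genes were 0.28, 1.02 and 0.54 under these scalings.

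With the processed signal so scaled, *Dsor1* exceeded young females by 1.38 on the log2 scale in reproducing females (limma, SE 0.28, adjusted p = 0.00747) and by 1.09 in diapausing females (limma, SE 0.28, adjusted p = 0.0453), and both were called. The comparison of reproducing with young females was also called at the 75th percentile after normexp, another background correction, at 1.11 (limma, SE 0.30, adjusted p = 0.0271). All 4 probes of *Dsor1* were called there with the processed signal, and 3 of them, without Dsor1_2F, after normexp. After quantile normalization the difference was 0.90 (SE 0.16, limma adjusted p = 0.00815), short of 2-fold, and over its 23 alternatives the adjusted p ranged from 0.00747 to 0.755. The median of all genes in that comparison was -0.04 with the processed signal and 0.16 with normexp and the 75th percentile, so *Dsor1* also stood apart from it there. Whether VSN or these scalings came closer to the amounts of RNA was not tested.

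*Mekk1* was above young females in diapausing females with an adjusted p under 0.05 but under 2-fold after 2 planned scalings, at 0.95 (SE 0.22, limma adjusted p = 0.0332) with the processed signal and 0.65 (SE 0.10, limma adjusted p = 0.0295) after quantile normalization. The medians of all genes were 0.33 and 0.00 there. Its bright probe Mekk1_2F alone was called with the processed signal at 1.53, after quantile normalization at 1.08 and after normexp with the 75th percentile at 1.29 (limma, adjusted p over 204 probes 0.0396, 0.0178 and 0.0359). With every array's median set equal, which was chosen after the data were seen, *Mekk1* was called in that comparison at 1.1 (SE 0.24, limma adjusted p = 0.0261). Over its 23 alternatives the adjusted p ranged from 0.0261 to 0.859. Reproducing females also exceeded young ones in *Mekk1* at under 2-fold after quantile normalization, by 0.38 (SE 0.10, limma adjusted p = 0.0276). With equal array medians that difference was 0.78 (SE 0.24, limma adjusted p = 0.0458). The medians of all genes were 0.03 and 0.15 there.

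**Figure D3:**
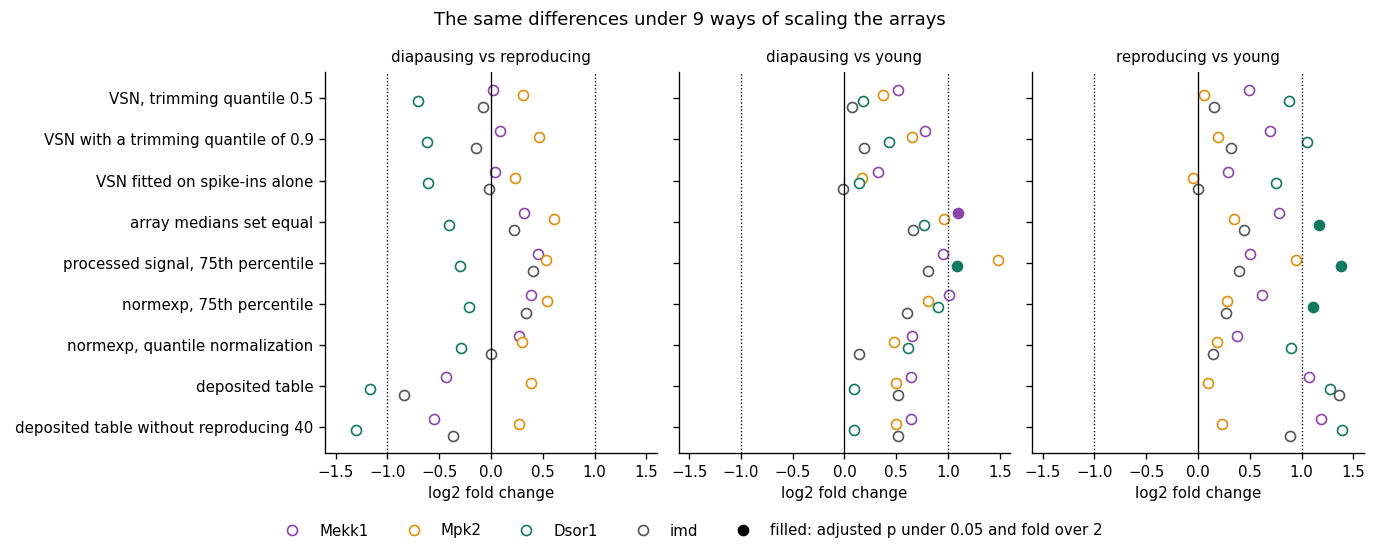
Log2 fold change (horizontal axis) of the 4 genes under 9 ways of scaling the arrays (rows), in 3 panels for the 3 comparisons, with filled points where the adjusted p was under 0.05 and the fold change over 2 and dotted lines at 2-fold. Filled points are *Dsor1* in both comparisons with young females and *Mekk1* in that of diapausing with young females, and no point is filled between diapausing and reproducing females.

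The levels of the genes moved with the array medians to differing degrees. Over the 9 arrays the Pearson correlation with the array's median was 0.73 for *Dsor1* (Spearman 0.78), 0.64 for *imd* (Spearman 0.70) and 0.57 for *Mekk1* (Spearman 0.50), beside a median of 0.66 over all genes, and it was -0.19 for *Mpk2* (Spearman -0.10). Relative to the array's median, *Mekk1* stood at 0.45, 0.70 and 0.56 on the diapausing arrays, at 0.49, 0.15 and 0.10 on the reproducing arrays and at -0.37, -0.64 and -0.59 on the young arrays. *Dsor1* stood at 1.71, 0.92 and 1.04 on the diapausing, 1.98, 1.64 and 1.26 on the reproducing and 0.35, 0.36 and 0.65 on the young arrays. On this scale neither gene's young arrays overlapped with any array of the other groups. The share of all genes separated in this way was not computed. The separation is therefore not read as a result about these genes, and whether it sets them apart was not determined. A ratio to the array's median shows unequal change only, since the median itself may differ between groups.

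**Figure D4:**
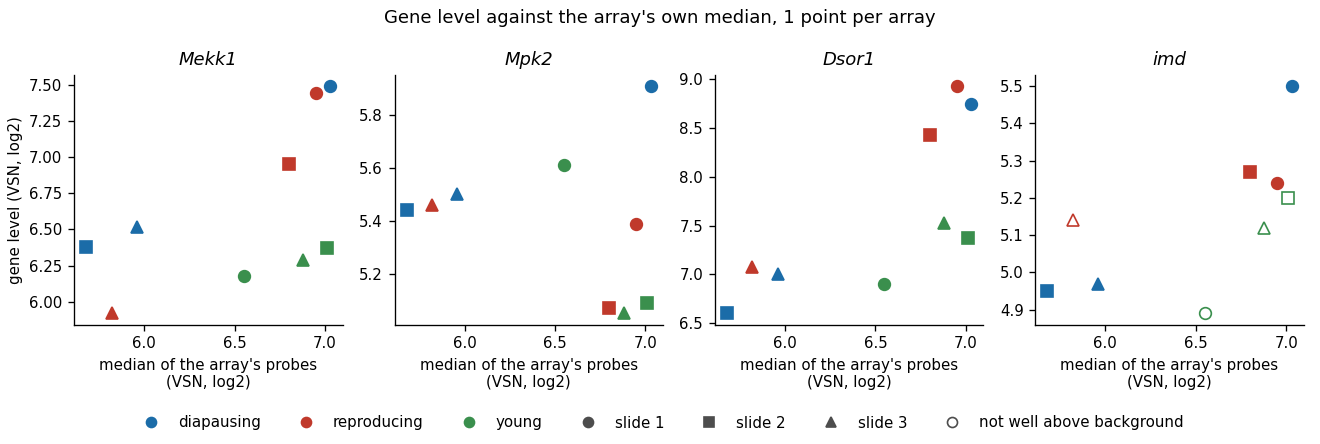
Gene level (VSN, log2; vertical axis) against the median of the array's 204 probes (VSN, log2; horizontal axis) for each gene, 1 point per array, coloured by group, with symbols for the slide and open symbols where the gene was not well above background. For *Mekk1* and *Dsor1* the 3 young arrays, with medians of 6.55 to 7.01, lie lower than diapausing 27, reproducing 22 and reproducing 23, whose medians are near theirs. Diapausing 42, diapausing 43 and reproducing 40 have medians of 5.68 to 5.96, where no young array lies for comparison. *Mpk2* shows no upward trend.

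*Dsor1* was also the gene whose pattern came closest to *Mekk1*, with a Pearson r of 0.893 over the 9 arrays (Spearman 0.62), followed by *Adh* at 0.817 (alcohol dehydrogenase). The closest to *Dsor1* among 67 other genes well above background on every array were *dare* at 0.970 (adrenodoxin reductase) and *CG4049* at 0.940. For *imd* they were *dare* at 0.862 and *Dsor1* at 0.849, among 68 genes. *Mpk2* had no close neighbour on this scale, the highest being *Pgm* at 0.671 (phosphoglucose mutase) and *Dca*, a gene tied to cold acclimation, at 0.665. With the array medians taken off, the correlation of *Dsor1* with *Mekk1* was 0.69 and that with *dare* 0.88. That of *imd* with *Dsor1* was 0.10. For *Mpk2* the values were higher on that scale, at 0.86 with *Pgm*, 0.77 with *Dca* and 0.90 with *imd*, against 0.12 with *imd* before. However, *Mpk2* ranged only from 5.05 to 5.91 and *imd* from 4.89 to 5.50, while the array medians ranged from 5.68 to 7.03. Taking the same median off such flat genes leaves mostly that median with its sign turned. The 0.90 is therefore not read as a likeness, and the same subtraction enters the other values of *Mpk2* and *imd* on that scale. All these values are descriptions over 9 arrays that share their normalization.

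The array held few other genes near these pathways. On the receptor, Ras and chaperone side, *InR* (the insulin receptor), *Nf1* (a Ras GTPase activator), *Pi3K92E* (a lipid kinase), *Hsp83* and *Cdc37* (the chaperone pair that holds many kinases in shape) were measured. Of these 5 genes, 0 were called and 0 reached an unadjusted p under 0.05 in any comparison, where 8.33% to 24.1% of all genes reached it. Their median log2 fold changes were -0.13, -0.21 and -0.08 for diapausing with reproducing, diapausing with young and reproducing with young females, beside -0.02, -0.38 and -0.14 for all genes. Only 1 of the 5 was well above background on all arrays.

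Of 9 further genes, 8 other protein kinases and a phosphatase subunit, 0 were called as well. At an unadjusted p under 0.05 were 3 of the 9 genes between diapausing and reproducing females (8.33% of all genes), 1 between diapausing and young females (10.2%) and 2 between reproducing and young females (24.1%). Diapausing females were at -1.27 on the log2 scale relative to reproducing females in *tws*, a regulatory subunit of the phosphatase PP2A (limma, SE 0.38, adjusted p = 0.224), and also at -1.27 in *CaMKII*, the calcium/calmodulin-dependent kinase (limma, SE 0.48, adjusted p = 0.428). *CaMKII* was at -1.31 between diapausing and young females (SE 0.48, limma adjusted p = 0.243), and *ninaC*, a myosin with a kinase domain, at -2.60 between reproducing and young females (SE 0.91, limma adjusted p = 0.137). For *inaC*, the protein kinase C of the eye, no reproducing array was well above background and the ratios to the limit there are under 1, so no fold is given (limma adjusted p = 0.224 for diapausing with reproducing and 0.0525 for reproducing with young females). The medians of the 9 genes were -0.44, -0.46 and 0.00 in the 3 comparisons, in the same order as above.

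Of the 26 circadian rhythm genes, with *Mekk1*, *Mpk2* and *Dsor1* among them, 0 were called between diapausing and reproducing females, with the median at 0.03. *slo*, a calcium-activated potassium channel, was called lower in diapausing females than in young ones (limma, -1.67 ± 0.28 SE, adjusted p = 0.0316), and *slo* and *so*, an eye transcription factor, were called lower in reproducing females than in young ones (-1.95, SE 0.28, adjusted p = 0.0093, and -1.41, SE 0.31, adjusted p = 0.026, both limma). The call of *slo* between diapausing and young females held under 12 of the 23 alternatives and was lost with slide as a block (limma adjusted p = 0.0841), in a fit of the 2 groups (0.0546) and without young 16 (0.197) or young 17 (0.182), and between reproducing and young females *slo* held under 19 and *so* under 14. Those calls were lost without young 16 (limma adjusted p = 0.0637 for *slo* and 0.123 for *so*) and without young 17 (0.0541 and 0.111). That of *so* was also lost without reproducing 22 (0.0662), reproducing 23 (0.0532) or reproducing 40 (0.0643). The list's medians were -0.36 and -0.08 in those comparisons. Of the 27 heat tolerance genes with *imd*, 0 were called in the comparisons of diapausing females, with medians of -0.37 and -0.46. Between reproducing and young females, the small heat shock gene *Hsp26*, not well above background on any young array, was called at least 8.96-fold higher (limma adjusted p = 0.026) and the co-chaperone *stv* lower (-1.82, SE 0.41, limma adjusted p = 0.0263), with a median of 0.00. Each of these 2 calls held under 16 of the 23 alternatives. Both were lost without young 16 (limma adjusted p = 0.109 for *Hsp26* and 0.123 for *stv*), young 17 (0.111 each), reproducing 23 (0.0717 and 0.0565) or reproducing 40 (0.0643 each). The call of *Hsp26* was also lost without young 12 (0.0749) or reproducing 22 (0.0706) and with VSN on spike-ins alone (0.0853). That of *stv* was also lost in a fit of the 2 groups (0.0513) and with the deposited table (0.106, and 0.103 without reproducing 40).

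RNA came from whole bodies, in which fewer cells of a type and less RNA per cell cannot be told apart. Of 7 photoreceptor genes, *ninaE*, *Arr1*, *Arr2*, *Rh3* and *inaD* were well above background on all 9 arrays and *trp* and *inaC* on 4, and the mean level of the list lay between 9.13 and 11.23 on diapausing, between 7.43 and 10.40 on reproducing and between 10.73 and 10.97 on young arrays. Its lowest value was that of reproducing 40. Of 4 neuronal genes, *syt* and *para* were well above background on no array, and the mean of the list lay between 4.75 and 4.89 on diapausing, 4.69 and 4.88 on reproducing and 5.18 and 5.56 on young arrays. All 7 photoreceptor genes had log2 fold changes below 0 between reproducing and young females, where 36.1% of all genes were above 0. For the 5 genes well above background on all 9 arrays they ran from -2.36 to -0.70. *trp* and *inaC* were not well above background on any reproducing array, so no fold is given for them. The neuronal genes did not move together there, with *slo* at -1.95 and *Sh* at 0.20. The part of these lists in the results for *Dsor1* and *Mekk1* was not tested.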

How the data were processed

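As deposited by the authors, each array's scanner file holds intensity values: a mean pixel intensity per spot, a local background intensity and a background-subtracted processed intensity, beside marks for outlier spots and for signal well above background, all from Feature Extraction 9.5.1.1 per the file headers. These values carry no scaling between arrays. The methods of the authors name VSN with spike-in probes, within the groups and across all samples, and limma. Here VSN was fitted once across all 9 arrays, and limma was applied to means over the probes of a gene. The calls differ from those of the paper. It reports genes of the lists above as lower in diapausing than in reproducing females, among them *tws*, *Cdk9*, *CkIIα*, *dco* and *Hsp83*, which were not called here. The authors' deposited value table, with intensity values of 197 probes, served as an alternative only.

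Outlier spots (over the 9 arrays, 4 experimental and 159 spike-in spots, none of them of the 4 genes) were left out, and copies of a probe averaged. VSN was written anew in R 4.3.3 and fitted on the 204 probes and the 200 spike-in spots of each array (trimming quantile 0.5, 5 slices, 7 rounds). Levels were tested with limma 3.58.1 over all 9 arrays with group as the only term, with Benjamini-Hochberg adjustment over all genes or 204 probes. The procedure was tested on simulated data, where recovery of changes was scored for brighter genes only. The simulated spread was smaller than the pooled SD within groups of *Dsor1* (0.88) and *Mekk1* (0.57), and *Mpk2* and *imd* were dim. The simulation therefore does not show how well changes in these 4 genes would be found. Plots were made in matplotlib 3.10.9 under Python 3.11.15.

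Groups and replicate numbers were read from the sample titles. Each sample is a separate pool of flies, but nothing says that pools came from separate cultures, so p-values measure the spread between these samples. A probe counted as well above background if at least 1 of its spots was so marked. The bound for a dim probe set the brighter group's mean against the mean of, per array, the higher of the lowest signal well above background and the probe's own. All probes of the 4 genes are named, and list genes were given values only if called or at an unadjusted p under 0.05. For each of the 4 genes the 2 most correlated genes well above background on every array are named. The 4 genes and the lists were chosen with earlier results of these data known. Alternatives were a VSN trimming quantile of 0.9, VSN on spike-ins alone, processed or normexp-corrected (offset 50) signal at the 75th percentile, quantile normalization, the authors' value table, outliers retained, the 197 probes only, omission of dim probes, the brightest probe for a gene, slide as a block, fits of 2 groups, and each array left out in turn. Equal array medians and the value table without reproducing 40 were chosen after the data were seen. The number of arrays limits the precision.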

Additional observations from a re-analysis of the deposited data

How the results depend on the processing

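Over 276 alternatives for the 4 genes in the 3 comparisons, 254 kept the direction and the call, 17 turned the direction of a difference that was not called, and 5 made a call. The 5 calls were *Dsor1* between reproducing and young females with the processed signal (1.38), with normexp at the 75th percentile (1.11) and with equal array medians (1.17), *Dsor1* between diapausing and young females with the processed signal (1.09), and *Mekk1* between diapausing and young females with equal array medians (1.1). Directions turned for *Mekk1* between diapausing and reproducing females with the deposited table (-0.43, and -0.55 without reproducing 40), for *imd* there with the processed signal (0.41), normexp at the 75th percentile (0.34) and equal array medians (0.22), for *imd* between diapausing and young females with VSN on spike-ins alone (-0.01), and for *Mpk2* between reproducing and young females with VSN on spike-ins alone (-0.05) and with outlier spots kept (0, by rounding from below). Leaving out 1 array at a time gave -0.38 to 0.34 for *Mekk1* and -0.20 to 0.05 for *imd* between diapausing and reproducing females, -0.44 to 0.60 for *Dsor1* and -0.09 to 0.17 for *imd* between diapausing and young females, and -0.06 to 0.22 for *Mpk2* between reproducing and young females. No gene of the 4 was called in any of these fits, though *Dsor1* moved to -1.28 between diapausing and reproducing females without diapausing 27 (limma adjusted p = 0.233).

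The count of all genes called was 1 between diapausing and reproducing females. It was 10 with the processed signal, 4 after quantile normalization, 5 with normexp at the 75th percentile, 4 with equal array medians, 2 with the brightest probe per gene, and 0 with VSN on spike-ins alone, without dim probes, with slide as a block, in a fit of the 2 groups and with the deposited table without reproducing 40, and 0 to 6 with 1 array left out. Between diapausing and young females it was 3, and 9 with the processed signal, 6 with the deposited table, 5 with a trimming quantile of 0.9 and with the brightest probe, 0 with spike-ins alone, quantile normalization, slide as a block or 2 groups, and 0 to 6 with 1 array left out. Between reproducing and young females it was 9, and 19 with the processed signal or equal array medians, 14 with a trimming quantile of 0.9 or quantile normalization, 5 with 2 groups, 4 with the deposited table without reproducing 40, and 0 to 12 with 1 array left out. Probes called between diapausing and reproducing females numbered 3, and 15 with the processed signal, 12 after quantile normalization, 8 with normexp at the 75th percentile or equal array medians, 5 with a trimming quantile of 0.9, 1 with the deposited table, 0 with 2 groups, and 1 to 16 with 1 array left out. Between diapausing and young females they numbered 5, and 13 with the processed signal, 3 with spike-ins alone, 2 with slide as a block or 2 groups, 1 after quantile normalization, and 0 to 8 with 1 array left out. Between reproducing and young females they numbered 9, and 36 with the processed signal, 29 with equal array medians, 23 with normexp at the 75th percentile, 22 after quantile normalization, 5 with slide as a block or the deposited table without reproducing 40, 4 with spike-ins alone, and 1 to 10 with 1 array left out. The cause of these shifts was not tested. The groups share no replicate numbers, so arrays were blocked by slide only, which changed no call among the 4 genes. Signal near background limits *imd*, *Mpk2* and Mekk1_3R.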

Other observations

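In the deposited table, the values of reproducing 40 differed from its own scanner file. Over 197 probes the log2 values of the table and of the processed signal correlated at 0.998 or more on the other 8 arrays and at 0.916 on reproducing 40. Among the 8 probes of the 4 genes, the ratio of the table's value to the processed signal lay between 1.98 and 3.42 on the other arrays. On reproducing 40 it was 17.5 for Mekk1_2F (1867 against 106.9), 12.9 for imd_1F1R (135 against 10.43), 1.1 for Mpk2_1FR (51 against 46.43), 4.05 for Mekk1_3R and between 4.71 and 5.5 for the *Dsor1* probes. Which of these sources holds the sample named in the labels was not tested.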
